A study of Danio rerio with 2 samples.

Results

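The 8 insulin-like growth factor genes described here were the ligands igf2a, igf2b and igf1, the receptors igf1ra and igf1rb, and the binding proteins igfbp1a, igfbp2a and igfbp3. They were found by gene symbol in the platform annotation, among 8793 genes named on the array, and were read by 11 of its 15502 probe sets. They were chosen with their values on these arrays already known, so the values below are a description and carry no test. Total RNA had been taken from whole zebrafish embryos at 24 hours after fertilization and measured on Affymetrix arrays, 1 array for embryos given a morpholino against the gene DrC1q-like (C1q-like morphants) and 1 for embryos given a control morpholino (control morphants). Morpholinos are synthetic antisense molecules that bind a chosen RNA and keep it from being spliced or translated. The control oligomer was the DrC1q-like morpholino with 5 mismatches, about 5 ng was injected per embryo in both groups, and all embryos were kept at 28.5 degrees Celsius. How many embryos were pooled for an array is not stated in the sources used here. The stated question was what the loss of DrC1q-like changes across the embryo, gene by gene and pathway by pathway.

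Insulin-like growth factors are small secreted relatives of insulin that drive growth and cell survival. They act on the receptor tyrosine kinases of the IGF1 receptor type, which recruit insulin receptor substrate proteins, PI3-kinase and Akt on one side and Ras and the MAP kinases on the other. In the extracellular space most of the ligand is held by IGF binding proteins, which can store it, block it or deliver it. Zebrafish carry duplicated copies of several of these genes, which is why igf2, the IGF1 receptor and some binding proteins appear as a and b forms. IGF signalling is known to be needed for growth of the zebrafish embryo and for survival of its neural cells.

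Each value is a MAS5 signal, a background-subtracted brightness on a linear scale in arbitrary units. Any signal lower than 33.3, which was the median signal over both arrays, was replaced by that value (the floor), and log2 ratios are of C1q-like over control morpholino. A gene is called measured where either array showed it at or above the floor, as was so for 5958 genes. With 1 array per group there was no replicate check, no error between embryos and no p-value for any difference. The recorded hybridization and scan dates differed between the arrays, so effects of the date and of the morpholino cannot be told apart. DrC1q-like itself had no probe set under its name among those used, so its knock-down could not be read. In whole embryos, fewer cells of a type and less RNA per cell cannot be told apart.

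The ligand genes igf2a and igf2b stood out. The igf2a probe set (Entrez gene 30710) gave 207.3 signal units with the C1q-like morpholino, against 61.4 with the control morpholino. That is 3.38-fold higher, a log2 ratio of 1.76, with both signals above the floor. Its sister gene igf2b (Entrez gene 324215) gave 90.0 signal units with the C1q-like morpholino, against 33.3 with the control morpholino. It was 2.7-fold higher, a log2 ratio of 1.43, and its control signal was equal to the floor. Both genes encode Igf2, the ligand known in mammals as a growth factor of the embryo. Each was read by 1 probe set, so neither has a second reading on the array. The log2 ratio of igf2a exceeded that of igf2b by 0.32, which is less than the technical spread of a probe set's log2 ratio, 0.44, estimated from genes with several probe sets.

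The third ligand gene, igf1, was not measured. Its probe set (Entrez gene 114433) read 1.7 in C1q-like morphants and 0.6 in control morphants, far under the floor on both arrays. In mammals, Igf1 is known as the main circulating ligand after birth, made in the liver under growth hormone. At these signals a difference in igf1 between the groups was not detectable.

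**Figure D1:**
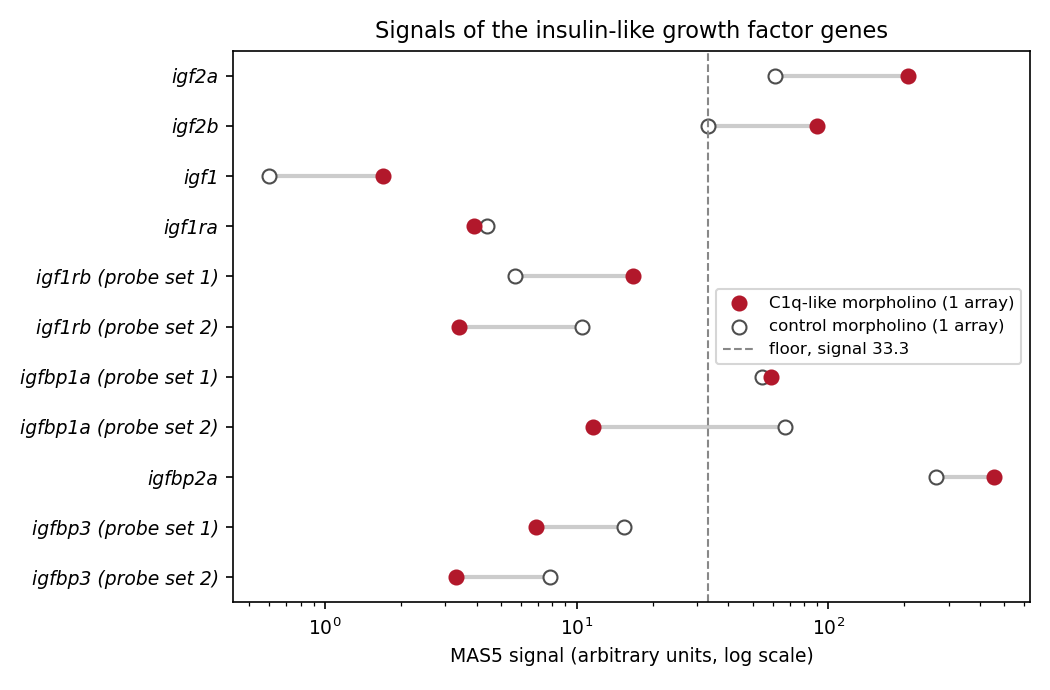
MAS5 signals (log axis) of the 11 probe sets of the insulin-like growth factor genes, with a filled point for the C1q-like morpholino array, an open point for the control morpholino array and a dashed line at the floor of 33.3. The filled points of igf2a, igf2b and igfbp2a lie to the right of their open points and at 90.0 or above, while the probe sets of igf1, igf1ra, igf1rb and igfbp3 lie left of the floor on both arrays.

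The receptor genes were not measured either. Both encode receptor tyrosine kinases that bind the IGF ligands. The igf1ra probe set (Entrez gene 245701) read 3.9 in C1q-like morphants and 4.4 in control morphants. For igf1rb (Entrez gene 245702), one probe set read 16.7 in C1q-like morphants and 5.7 in control morphants. The other read 3.4 in C1q-like morphants and 10.5 in control morphants, the opposite order. All 3 probe sets were below the floor on both arrays, so no fold is given for either receptor.

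Among the binding proteins, igfbp2a was well above the floor on both arrays and moderately higher. Its probe set (Entrez gene 794176) read 452.9 in C1q-like morphants and 266.3 in control morphants, a 1.7-fold difference and a log2 ratio of 0.77. In zebrafish, Igfbp2a is known as an inhibitor of embryonic growth when supplied in excess.

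The readings of igfbp1a disagreed. The product of igfbp1a is known in zebrafish as a binding protein induced by hypoxia that slows growth. The brighter probe set of the gene (Entrez gene 317638), which was the one used, read 59.1 in C1q-like morphants and 54.4 in control morphants, a log2 ratio of 0.12. The second read 11.6 with the C1q-like morpholino, below the floor, and 67.1 with the control morpholino, so it was at least 2.02-fold lower, a log2 ratio of -1.01. The floored log2 ratios of these probe sets were 1.13 apart, a lower bound because of the signal below the floor. Of 789 genes with at least 2 measured probe sets, 7.1% had their brightest pair 1.13 or more apart after the same flooring. The median distance was 0.36. No direction is therefore given for igfbp1a.

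Both probe sets of igfbp3 (Entrez gene 403079), whose product is the main carrier of IGFs in mammalian serum, were below the floor. The first read 6.9 in C1q-like morphants and 15.4 in control morphants. The second read 3.3 in C1q-like morphants and 7.8 in control morphants. The order was the same in both, at levels where low MAS5 signals are mostly background.

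In all, 4 of the 8 genes were measured, and 2 of these, igf2a and igf2b, were past 2-fold on the higher side. None of the 4 was 2-fold lower by its brightest probe set. Of the 5958 measured genes as a whole, 1.68% were past 2-fold on the higher side and 4.1% on the lower. The share of higher genes among those past 2-fold was 29.1%, and it was 15.2% after centring on the median, 39.6% after lowess centring and 42.5% with quantile normalization. Since the genes were chosen for these values, nothing is read from their count against that background.

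By log2 ratio igf2a ranked 9th from the top of the 5958 measured genes, igf2b 23rd, igfbp2a 300th and igfbp1a 2437th. These ranks depended on the floor. With the floor at 12.2, igf2a was 44th and igf2b 142nd of 7838 genes, and with no floor igf2a was 472nd and igf2b 665th of 8793. The spread of ratios differed with brightness, so the ratios were also set beside genes of like brightness, in 4 classes of nearly equal size by mean log2 signal. In the class of igf2a, of 1489 genes, the middle 95% of log2 ratios ran from -1.41 to 0.91, and 1 gene had a higher ratio than igf2a. In the dimmer class of igf2b, also of 1489 genes, that range was -1.19 to 1.08, and 9 genes had higher ratios than igf2b. The igfbp2a ratio lay inside the range of its class, the brightest, which was -0.96 to 0.83, with 60 of 1490 genes above it. Because the genes were chosen with these ratios known, the ranks and ranges place them but do not test them.

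**Figure D2:**
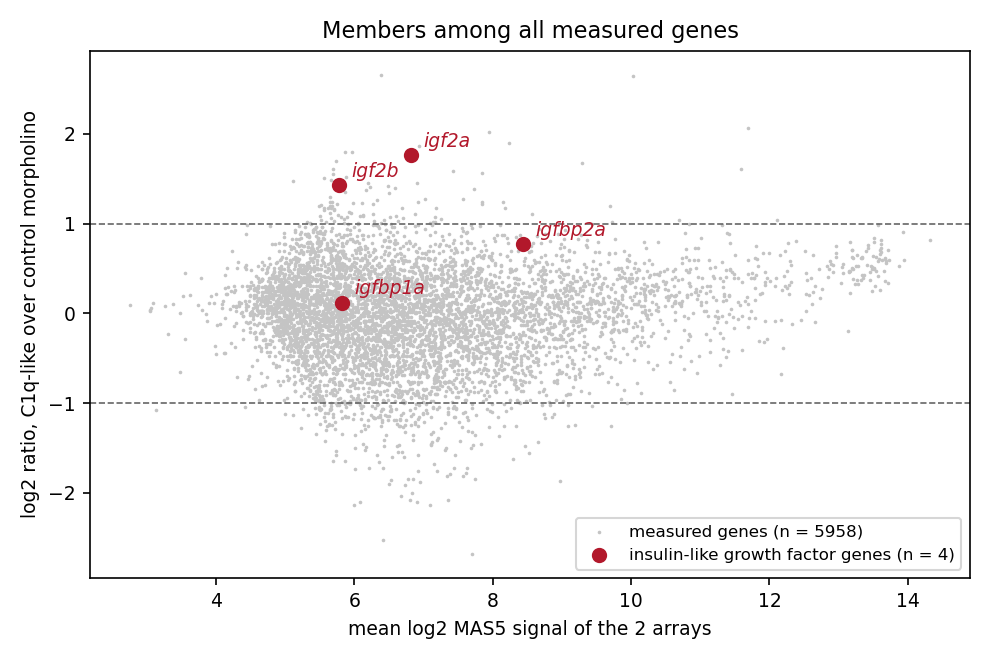
Log2 ratio of C1q-like over control morpholino (vertical) against the mean log2 MAS5 signal of both arrays (horizontal) for 5958 measured genes in grey, with the 4 measured insulin-like growth factor genes in red and dashed lines at a 2-fold difference. The points of igf2a at 1.76 and igf2b at 1.43 lie at the upper edge of the cloud, igfbp2a at 0.77 near its upper edge among bright genes, and igfbp1a at 0.12 in its middle.

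The log2 ratio of igf2a stayed between 1.64 and 1.9 under the 3 other scalings of the arrays, and that of igf2b between 1.32 and 1.46. The igfbp2a value lay between 0.65 and 0.84 under them. Centring on the median moved the median of all measured genes from 0.01 to -0.10, and ratios with both signals above the floor moved down with it. With the floor raised to 93.1, the igf2a ratio was 1.15, because its control signal was then replaced by the floor, and igf2b was no longer measured.

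**Figure D3:**
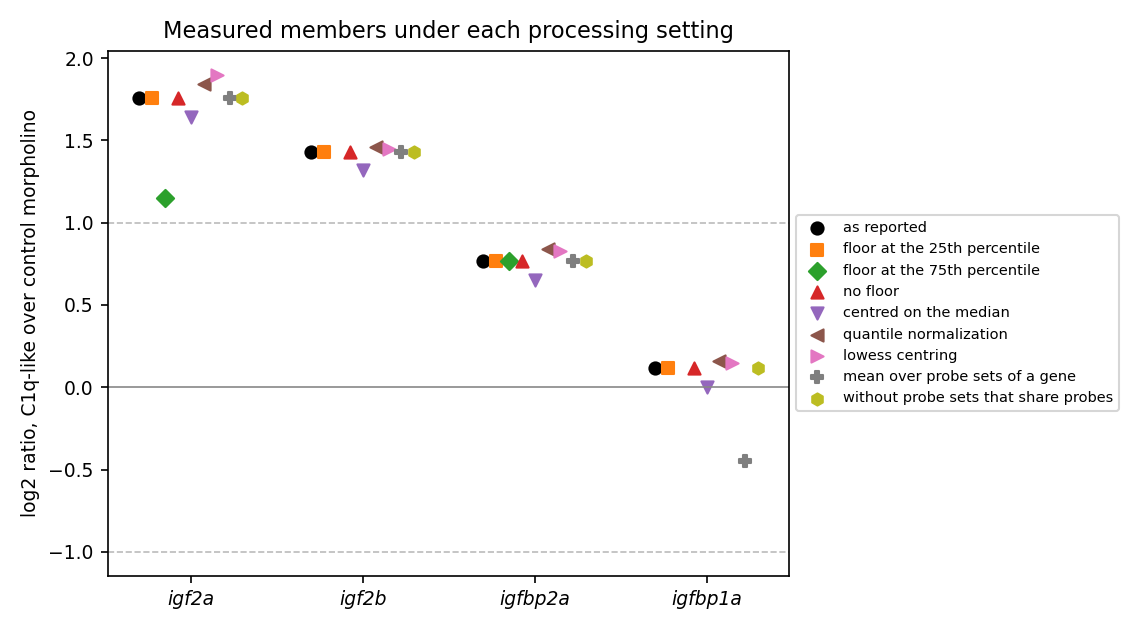
Log2 ratio of C1q-like over control morpholino for the 4 measured genes, with 1 point per processing setting and the reported value in black; dashed lines mark a 2-fold difference. The igf2a points lie above 1 in each setting, with the lowest, 1.15, from the higher floor; the igf2b points lie between 1.32 and 1.46, and the igfbp1a value turned to -0.45 as a mean over both of its probe sets.

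The genes with ratios nearest to that of igf2a, judged by log2 ratio over these 2 arrays alone, were the ventral homeobox gene vox (1.86), the follistatin gene fsta (1.8, a lower bound) and polr3f, for a subunit of RNA polymerase III, (1.8) just above it. Just below were gpr137 (1.7, a lower bound), the claudin gene cldng (1.68) and bzw1a (1.61). A likeness over 1 pair of arrays says only that these ratios were of similar size.

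On the chromosome, igfbp3 and igfbp1a are neighbours in the RefSeq gene order of assembly GRCz12tu, and igfbp2a lies beside igfbp5a, which was not read here. The genes flanking igf2b were mrpl23, of the mitochondrial ribosome, and th, encoding tyrosine hydroxylase. The mrpl23 signal was 454.3 in C1q-like morphants and 384.7 in control morphants, a log2 ratio of 0.24, and th, at 20.9 and 1.3 in the same order, did not reach the floor. No protein-coding gene within 2 places of igf2a had a probe set here.

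As a group, the measured genes of the rest of the pathway did not follow the igf2 genes in RNA level. Of 139 further genes listed for the pathway, 67 were on the array and 47 were measured, of which 22 had ratios above 1 and 25 below. Their median log2 ratio was -0.04, against 0.01 over all measured genes. Among the 22, igfbp1b, ghra, ghrb and stat5a reached the floor on the C1q-like morpholino array alone, so their ratios are lower bounds in size. Among the 25, the same held on the control morpholino array for grb2a, pik3r4, akt2l and araf. At least 2-fold higher were 3 of the 47 (6.38%), namely phlda3, phlda2 and pik3r3a, and at least 2-fold lower was 1 (2.13%), pik3r3b. The corresponding shares of all measured genes were 1.68% and 4.1%. The lists were written with earlier results of these arrays known, and phlda3 was among those results.

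Of the other binding protein genes, igfbp1b read 42.7 in C1q-like morphants and 22.2 in control morphants, a log2 ratio of at least 0.36. The gene igfbp5b read 39.6 in C1q-like morphants and 50.1 in control morphants, a log2 ratio of -0.34. The gene igfals, which in mammals encodes the acid-labile subunit of the serum IGF complex, read 19.6 and 0.8 in the same order, below the floor on both arrays. Of the genes that process ligands or binding proteins, stc2a was the 1 of 4 measured. It encodes a stanniocalcin, a family known in mammals to block the protease that cuts IGF binding proteins, and had a log2 ratio of -0.47.

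The insulin and growth hormone genes had 6 of 8 measured members above a ratio of 1 and 2 below, with a median log2 ratio of 0.31 and none past 2-fold. Of all measured genes 50.9% were above 1. The growth hormone receptor genes ghra and ghrb and the transcription factor gene stat5a reached the floor on the C1q-like morpholino array alone. Their ratios are thus lower bounds in size, from low signals. With such signals and 1 array per group, the count of 6 supports no direction. With the floor at 93.1 only ins was still measured, so the value of 0.82 there was the log2 ratio of that gene. The median was 0.78 with no floor, where stat5a reached 1.91 and ghra 1.21. The insulin gene ins read 207.5 in C1q-like morphants and 117.3 in control morphants, 1.77-fold higher. The cytokine receptor kinase gene jak2a read 63.3 in C1q-like morphants and 35.5 in control morphants, 1.78-fold higher. Its paralogue jak2b was at -0.44 on the log2 scale and the signalling inhibitor gene socs3a at -0.26. The insulin receptor gene insra, the closest relative of the IGF1 receptors on the array that was measured, read 74.5 in C1q-like morphants and 60.8 in control morphants. The insulin receptor gene insrb was below the floor on both arrays, as were both probe sets of igf1rb and the one of igf1ra. Genes for proteins that bind igf2 RNA in mammals had log2 ratios of -0.48 for igf2bp1 and -0.11 for igf2bp3. For igf2bp3 the sign turned to positive under 2 of the 3 other scalings, reaching 0.05.

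Of 9 measured adaptor and PI3-kinase genes, 3 had ratios above 1 and 6 below, with a median of -0.08. Among the 6, grb2a and pik3r4 reached the floor on the control morpholino array alone, so their ratios are lower bounds in size. The regulatory subunit genes pik3r3a and pik3r3b, duplicates of 1 mammalian gene, differed in direction. The pik3r3a signal was 204.1 in C1q-like morphants and 100.6 in control morphants, 2.03-fold higher. The pik3r3b signal was 71.0 in C1q-like morphants and 188.4 in control morphants, 2.65-fold lower, and its second probe set was below the floor on both arrays. The pik3r3a log2 ratio of 1.02 lies at the 2-fold line and was 0.90 after centring on the median. The next highest, pik3r1 at 0.29, had a second probe set at -0.59, and pik3c3, encoding the class III kinase of autophagy, was at -0.78. The measured genes of this list included no catalytic subunit of the class I PI3-kinases that the IGF receptors engage.

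Of 7 measured genes of the Akt and FoxO list, 4 had ratios over 1 and 3 under 1, and the median was 0.10, or -0.01 after centring on the median. Among the 3, akt2l reached the floor on the control morpholino array alone, so its ratio is a lower bound in size. The exceptions in size were the pleckstrin homology domain genes phlda3 and phlda2. The phlda3 product is known in mammals to hold Akt off the membrane. The phlda3 signal was 210.1 in C1q-like morphants and 33.3 in control morphants, equal to the floor, which is 6.31-fold higher; its log2 ratio of 2.66 was 1.17 with the floor at 93.1. The phlda2 signal was 396.1 in C1q-like morphants and 134.4 in control morphants, 2.95-fold higher. The lowest of the list were the kinase gene gsk3ba at -0.41 and the transcription factor gene foxo3b, whose product Akt holds out of the nucleus, at -0.27.

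The mTOR list had 4 of 9 measured genes above a ratio of 1 and 5 below, a median of -0.01, and none past 2-fold. The sestrin gene sesn3 read 288.6 in C1q-like morphants and 149.7 in control morphants, 1.93-fold higher, and its log2 ratio of 0.95 lay between 0.83 and 1.11 under the other scalings, on both sides of the 2-fold line; sestrins are known in mammals as inhibitors of mTOR complex 1. The translation repressor genes eif4ebp1 and eif4ebp2 went opposite ways. The eif4ebp1 signal was 937.3 in C1q-like morphants and 583.1 in control morphants, a log2 ratio of 0.68. The eif4ebp2 signal was 732.3 in C1q-like morphants and 1045.5 in control morphants, a log2 ratio of -0.51. The second lowest of the list was rps6kb1b at -0.14, whose sign turned under 2 of the 3 other scalings. The gene mtor itself did not reach the floor, at 27.1 in C1q-like morphants and 30.9 in control morphants.

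The Ras and MAP kinase list had 4 of 9 measured genes above a ratio of 1 and 5 below, a median of -0.07, and none past 2-fold. The S6 kinase gene rps6ka3a was highest at 0.71, followed by the MAP kinase kinase gene map2k1 at 0.27. The lowest were mapk3, encoding the kinase Erk1, at -0.61 and the kinase gene araf at -0.54, the second a lower bound in size. For araf, the floor was reached on the control morpholino array alone. The 2 other probe sets of mapk3 gave 0.04 and 0.01.

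**Figure D4:**
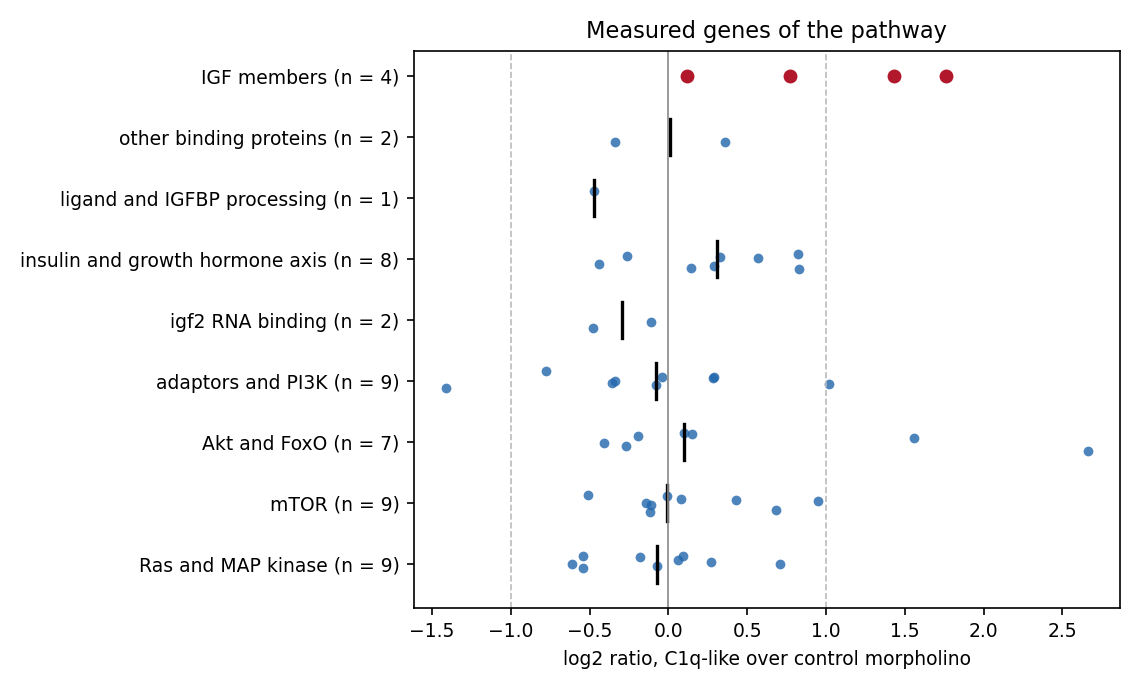
Log2 ratio of C1q-like over control morpholino for each measured gene, with the 4 insulin-like growth factor genes in red at the top and the genes of 8 pathway lists below in blue; black bars are list medians and dashed lines mark a 2-fold difference. The list medians lie between -0.47 and 0.31 at the floor of 33.3, and the blue points past 2-fold are phlda3, phlda2 and pik3r3a on the higher side and pik3r3b on the lower.

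Marker genes of tissues present in the whole embryo also differed in level between the arrays. Of 9 yolk layer and liver genes measured, 8 had ratios above 1, with a median log2 ratio of 0.53 and a summed signal of 53736.2 in C1q-like morphants and 37012.2 in control morphants. That median was 0.25 with quantile normalization and 0.22 with lowess centring. Apolipoprotein genes outside that list went both ways, such as apoea at -0.76 and apoa4b.2 at -0.49, against apoba at 0.27 and apoc2 at 0.14. Fibrinogen genes outside it did so too, with fga at 0.47 and fgg at -0.21. All 4 epidermal genes measured were above 1, with a summed signal of 24109.6 in C1q-like morphants and 13558.7 in control morphants. Most of that sum was krt4, at 17052.4 and 8631.3 in the same order. Its log2 ratio of 0.98 was as low as 0.40 under the other scalings. The epidermal median of 0.52 was 0.40 with quantile normalization and 0.37 with lowess centring. All 5 neuron genes were below 1, with a median of -0.91 and a summed signal of 435.6 in C1q-like morphants and 886.0 in control morphants. One of these, elavl4, read 6.8 in C1q-like morphants and 45.2 in control morphants. It reached the floor on the control morpholino array alone, so its ratio is a lower bound in size. The medians were 0.25 for 5 muscle genes (-0.31 with quantile normalization and -0.26 with lowess centring), 0.25 for 4 notochord genes and -0.15 for 4 red cell genes. Summed signals of the notochord genes went against their median, at 1073.8 in C1q-like morphants and 1245.1 in control morphants. Those of the red cell genes did so too, at 23085.3 and 16239.9 in the same order. Most of that sum was hbae3, whose log2 ratio of 0.66 was as low as 0.02 under the other scalings. The other globin gene, hbbe3, was at 0.3, and as low as -0.12 under them. The remaining red cell genes were lower, alas2 at -0.6 and slc4a1a at -1.01, which is 2.01-fold lower. The slc4a1a value lay between -1.12 and -0.86 under the other scalings. The muscle genes summed to 30056.9 in C1q-like morphants and 26189.6 in control morphants. None of the hatching gland genes was matched. Of 8 hypoxia response genes on the array 3 were measured, with a median of -0.66. No measured marker had a log2 ratio of 0, and 5 of the hypoxia genes were not measured, being below the floor on both arrays. The part of these levels in the igf2a and igf2b ratios was not tested.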

How the data were processed

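The authors deposited 1 MAS5 signal intensity per probe set and array, per the submitters' processing notes, on a linear scale. Its version and scaling target are not stated in the sources used here. The deposited signals had trimmed means of 98.8 (C1q-like morpholino) and 99.4 (control morpholino), leaving out 2% at each end, and 51.2% and 49.0% of probe sets reached the floor. Other values in the deposited instrument files, per the file headers, differed in 2 of 42 settings, the hybridization and scan dates. Having 1 array per group limits the precision.

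Genes were named from the platform annotation and updated by Entrez number through RefSeq (GRCz12tu): a single gene was named for 10795 probe sets (10711 matched RefSeq), several genes for 135 and no gene for 4572. The files name no genome build, so no coordinates are given. Where a gene had several probe sets, the one brightest by mean log2 signal was used. Ratios were taken on the log2 scale from the deposited signals after flooring at 33.3. Where 1 signal lay below the floor, the fold is a lower bound. The technical spread is the standard deviation of differences in log2 ratio between the brightest pair of measured probe sets of a gene, divided by the square root of 2. Both probe sets of a pair were read on the same arrays, so this spread holds no error between arrays, days or embryos.

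The 8 genes and all lists were chosen with earlier results of these data known. The genes named are those 8, the other binding proteins, the 2 highest and 2 lowest measured genes of each list, and the 3 genes on either side of igf2a by ratio. Other genes named were chosen after their values were seen. Some listed genes are not reported here. The 8 alternatives were 3 floors (12.2, 93.1, none), 3 scalings (median centring, quantile, lowess with span 0.3), the mean over probe sets, and leaving out probe sets that share probes. The steps were tested on simulated data. Changes were placed there only in genes with control signals well above the floor, brighter than those of igf2a and igf2b. Genes near the floor were thus not covered. Software was Python 3.11.15, numpy 2.4.6, pandas 2.3.3, scipy 1.17.1, statsmodels 0.14.6 and matplotlib 3.10.9.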

Additional observations from a re-analysis of the deposited data

How the results depend on the processing

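Under the other scalings of the arrays, the log2 ratio of igf2b was 1.32 to 1.46 and that of igfbp2a 0.65 to 0.84. The log2 ratio of igf2a was 1.64 to 1.9 under them. All of these moves were smaller than the technical spread of 0.44. The lower floor, no floor, the mean over probe sets and leaving out probe sets that share probes could not change these ratios. Each of these genes has 1 probe set, without shared probes and with both signals at or above 33.3. The floor at 93.1 could not change igfbp2a either, and left igf2b unmeasured. It gave 1.15 for igf2a, whose control signal it replaces. The igfbp1a value was -0.45 as a mean over its probe sets. With the higher floor 2 of the 8 genes were measured and 1 was 2-fold higher. With no floor all 8 were measured and 4 were 2-fold higher, because igf1 (1.5) and igf1rb (1.55) then gave ratios of very low signals. At that setting igfbp3, also of very low signals, was past 2-fold on the lower side, at -1.16. Pathway genes at least 2-fold higher and lower numbered 6 and 2 with the lower floor. With none they numbered 10 and 5, of 67 on the array. Counts over all genes, given below, also rose at both settings. The median of the pathway genes stayed between -0.13 and 0.04. Medians of single lists moved more with the floor. That of ligand and binding protein processing, at -0.47 with 1 gene measured, was 0.18 with the lower floor. That of the other binding proteins, at 0.01, was 0.94 with no floor. The Akt and FoxO list, at 0.10, was at 1.17 with the higher floor, where phlda2, phlda3 and foxo3b alone were measured. Over all genes the counts were 545 and 449 of 7838 with the lower floor, 54.8% of the genes past 2-fold being higher. They were 31 and 103 of 3374 with the higher floor and 1117 and 893 of 8793 with none (55.6% higher). After centring on the median 63 of 5947 genes were 2-fold higher. Higher genes made up 15.2% of those past 2-fold after that centring, 39.6% after lowess centring and 42.5% with quantile normalization. The causes of these shifts in all genes were not tested. No paired analysis was possible because each group had 1 array. Signals under the floor limit what can be said of igf1, igf1ra, igf1rb and igfbp3.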
